A study of Mus musculus with 7 samples.

Results

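The regions described here were stretches of the mouse genome that a 6-state chromatin segmentation placed in state E2 or E3 in leukaemia cells given DMSO and in state E5 or E6 in the same kind of cells given GSK-LSD1. They were chosen by these states alone, in 200 bp bins of the autosomes and chromosome X, with adjacent bins merged and runs of at least 400 bp kept. The rule left 8867 regions, called the new regions below, which held 36530 of the 13168874 bins compared and covered 7.31 Mb. The cells were BALB/c bone marrow cells, labelled CEBPA/CSF3R leukaemia cells, that carried mutant CSF3R and mutant CEBPA from retroviruses in both treatments and grew in IMDM with 20% FBS. One group received DMSO and the other 4 nM GSK-LSD1, in each case for 48 h. Chromatin immunoprecipitation for H3K4me1, H3K4me3 and H3K27Ac gave 1 library per mark and treatment, beside 1 input library, and 1 segmentation per treatment was deposited. The study asked how inhibition of LSD1 changes the chromatin of this leukaemia, which carries an activated receptor for granulocyte colony-stimulating factor and a defective myeloid transcription factor.

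LSD1, the product of Kdm1a, is a demethylase that removes methyl groups from lysine 4 of histone H3, and GSK-LSD1 is a small molecule that inactivates it. In myeloid cells LSD1 works with CoREST proteins and is brought to DNA by the repressors GFI1 and GFI1B, which hold back genes of mature granulocytes and monocytes. H3K4me1 is typical of enhancers, H3K4me3 of active gene starts, and H3K27Ac of enhancers and starts in use. The states are called by their numbers, because the marks behind them are not stated in the sources used here, and a number may stand for different marks in the 2 treatments. In the DMSO segmentation E3 held 9653161 bins, most of the genome, and E2 held 2799923. The 8 genes taken as markers of myeloid leukaemia cells (Ptprc, Itgb2, Elane, Mpo, Spi1, Csf3r, Cebpa and Cd33) each had some E5 or E6 in the gene or within 20 kb in DMSO, from 0.2 kb at Mpo to 14.6 kb at Itgb2. So did 15317 of 21631 protein-coding genes and 16 of 20 listed B and T lymphocyte genes, so these values do not set the cell type apart. With no replicates there was no test. Shares are given with 95% Wilson intervals, which cover counting error only and are too narrow for neighbouring bins. Differences between the libraries cannot be told apart from the effect of GSK-LSD1, and the read depth behind the states is unknown.

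Few of the new regions lay over a gene start, and those that did lay at genes of neutrophils and macrophages and at genes of other tissues. The 250 bases upstream of 6 such starts are shown so that their contrast in CpG content can be seen, with each CpG in capitals. All are written 5′ to 3′ along the gene's own strand, from RefSeq on GRCm38.p6. The first is Cxcr2, the neutrophil receptor for CXC chemokines (plus strand, chr1:74153744-74153993, E2 to E5 at the start).
Cxcr2: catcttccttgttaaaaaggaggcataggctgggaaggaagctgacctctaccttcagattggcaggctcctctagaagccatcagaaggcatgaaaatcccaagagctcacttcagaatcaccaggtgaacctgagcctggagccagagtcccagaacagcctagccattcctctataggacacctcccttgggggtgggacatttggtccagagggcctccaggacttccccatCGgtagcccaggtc
The next is Itgam, which encodes the CD11b integrin of mature myeloid cells (plus strand, chr7:128062390-128062639, E2 to E6).
Itgam: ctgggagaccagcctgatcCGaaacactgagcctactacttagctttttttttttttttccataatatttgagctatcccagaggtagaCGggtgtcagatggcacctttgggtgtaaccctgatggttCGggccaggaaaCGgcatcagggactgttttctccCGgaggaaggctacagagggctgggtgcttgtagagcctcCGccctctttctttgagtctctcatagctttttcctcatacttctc
Nlrp3 encodes the sensor of an inflammasome (plus strand, chr11:59542436-59542685, E2 to E5).
Nlrp3: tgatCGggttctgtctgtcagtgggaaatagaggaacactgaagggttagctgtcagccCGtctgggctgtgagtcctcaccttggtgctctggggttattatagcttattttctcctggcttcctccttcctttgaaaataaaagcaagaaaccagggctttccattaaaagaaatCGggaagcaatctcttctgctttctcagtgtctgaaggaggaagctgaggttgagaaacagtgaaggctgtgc
Ms4a6b encodes a membrane protein with several transmembrane helices (plus strand, chr19:11518309-11518558, E2 to E5).
Ms4a6b: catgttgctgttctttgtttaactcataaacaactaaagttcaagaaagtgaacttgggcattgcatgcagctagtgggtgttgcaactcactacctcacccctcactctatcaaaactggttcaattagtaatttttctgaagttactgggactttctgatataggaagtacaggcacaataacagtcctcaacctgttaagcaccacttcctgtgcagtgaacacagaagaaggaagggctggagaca
Igsf6 encodes an immunoglobulin-domain membrane protein (minus strand, chr7:121074531-121074780, E2 to E6).
Igsf6: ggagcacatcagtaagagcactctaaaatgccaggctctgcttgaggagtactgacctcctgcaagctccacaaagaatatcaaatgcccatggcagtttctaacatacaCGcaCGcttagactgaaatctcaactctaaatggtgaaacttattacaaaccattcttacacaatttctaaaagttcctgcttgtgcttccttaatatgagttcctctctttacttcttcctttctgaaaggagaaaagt
Lrig1, a membrane protein that restrains growth factor receptors, is the CpG-rich case (minus strand, chr6:94700146-94700395, E3 to E5).
Lrig1: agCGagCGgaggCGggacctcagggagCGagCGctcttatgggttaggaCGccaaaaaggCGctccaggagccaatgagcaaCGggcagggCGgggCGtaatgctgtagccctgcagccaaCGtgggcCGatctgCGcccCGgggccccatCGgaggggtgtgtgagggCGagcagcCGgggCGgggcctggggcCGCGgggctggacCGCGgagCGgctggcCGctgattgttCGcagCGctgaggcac
These stretches held 1 CpG at Cxcr2, 6 at Itgam, 3 at Nlrp3, 0 at Ms4a6b, 2 at Igsf6 and 26 at Lrig1. The new region covered 243 of the 300 promoter bases (250 before the start and 50 after) at Cxcr2 and 89 at Itgam. At the other 4 genes it covered all 300.

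The new regions were short. Their lengths had quartiles of 400, 600 and 1000 bp, 435 reached 2000 bp, and the longest measured 9200 bp. At the edge of the length rule, 2785 runs of 400 bp were kept and 3607 runs of 200 bp were left out. Most of the area came from E2: 89.8% of the bins were E2 in DMSO (89.5 to 90.1) and 10.2% were E3. Of all E2 bins in DMSO, 1.28% were E5 or E6 in GSK-LSD1 (1.27 to 1.29), whereas 17.0% were E1 and 5.41% were E4. Of E3 bins, 0.0449% were E5 or E6. The reverse change, from E5 or E6 to E2 or E3, gave 176 regions and 0.102 Mb, and its longest region measured 1600 bp. The new regions made up 7.68% of the 95.2 Mb that GSK-LSD1 placed in E5 or E6.

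The new E5 and E6 regions differed in their surroundings in GSK-LSD1. Of the new regions, 3737 were E5 throughout, 4531 were E6 throughout and 599 mixed the 2 states. Over bins, 60.1% were E6 (59.6 to 60.6). Among bins that were E5 or E6 in both treatments the share was 58.2% (58.0 to 58.4). Bins that came from E2 went to E6 in 63.0% of cases, while those that came from E3 went to E5 in 78.9%. In GSK-LSD1 the bins flanking E5-only regions were E4 in 64.2%, further E5 in 33.7% and E1 in 0.281%. Those flanking E6-only regions were E1 in 63.1%, further E6 in 35.2% and E4 in 1.10%. In DMSO those same flanks had been E2 in 49.4% of E5-only and 60.1% of E6-only cases. They had been E4 in 35.5% and 30.5%, E3 in 13.6% and 2.76%, and E1 in 0.241% and 6.53%.

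Across all E5 and E6 of GSK-LSD1, 69.4% of E5 boundaries met E4 and 62.7% of E6 boundaries met E1. In DMSO, 89.0% of E5 boundaries met E4, while those of E6 met E5 in 62.1% and E1 in 34.4%. No boundary of E5 or E6 met E2 in either segmentation. A new region in a field of E2 therefore always came with a rim of E4, E1 or, rarely, E3 in GSK-LSD1. E6-only regions sat in unbroken stretches of E1 and E6 in GSK-LSD1, with a median length of 22000 bp (quartiles 10600 and 41600). The DMSO states of these whole stretches were not counted. Genome-wide, E6 went from 5.73 Mb to 54.9 Mb with GSK-LSD1.

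**Figure D1:**
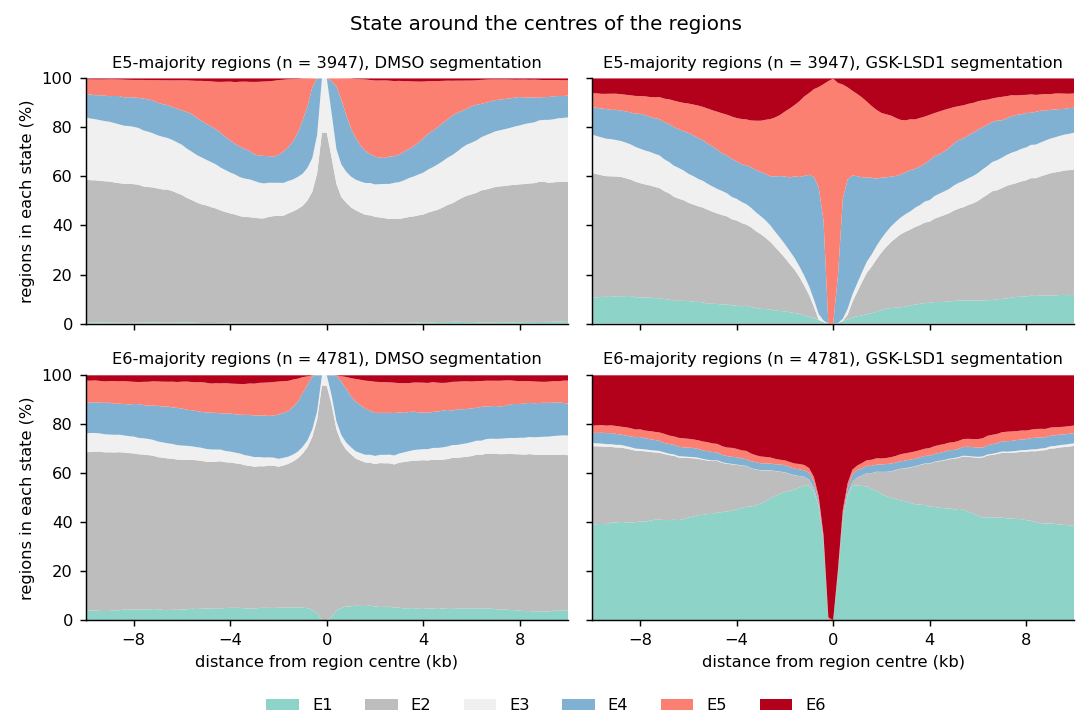
Share of regions (vertical axis, percent) in each state at each distance from the region's centre (horizontal axis, kb), for 3947 regions with more E5 bins and 4781 with more E6 bins, in DMSO (left) and GSK-LSD1 (right). The centres are E2 or E3 on the left and E5 or E6 on the right because of the rule. In GSK-LSD1 the flanks were often E4 around E5 and E1 around E6. These were the usual neighbours of E5 and E6 in that segmentation, where neither state bordered E2. The choice of centres therefore limits what the flanks can be.

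The new regions fell into 3 kinds by what the surrounding E5 or E6 region of GSK-LSD1 had been in DMSO. In 4359 (49.2%) that region already held E5 or E6 in DMSO, so that the new region was an extension; the enclosing region had a median length of 5400 bp. Another 1686 (19.01%) lay in an E5 or E6 region that was wholly new but included bins that had been E4 or E1. The remaining 2822 (31.8%) lay in one made of former E2 and E3 alone, and 1638 of these were at least 1000 bp from any E1, E4, E5 or E6 of DMSO. Regions wholly new to E5 and E6 thus made up 50.8% (49.8 to 51.9). The share was 20.1% among regions that entered from E4 and 35.3% among those from E1. It was 57.5% for E6-only regions (56.03 to 58.9) and 41.5% for E5-only regions (39.9 to 43.1).

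Most new regions were distal, defined as more than 2.5 kb from either end of any annotated gene. Distal sites numbered 5697, or 64.2% (63.2 to 65.2), and proximal sites 3170. The distal share was 34.5% for E5 or E6 kept from DMSO (33.9 to 35.2), 49.1% for regions entering from E4 (48.5 to 49.7) and 76.2% for those entering from E1 (74.5 to 77.7). Among new regions it was 76.3% for E6-only against 49.9% for E5-only. It was 66.9% for those from E2 and 45.8% for those from E3. Extensions were distal in 54.9%, and regions made of former E2 and E3 alone in 71.9%. The median distance from a gene end was 3860 bp, and 28.3% lay over 10 kb away. The contrast with kept regions is partly set by the rule, which bars starts that were E5 or E6 in DMSO. Kept regions were also longer, with a median of 2000 bp against 600 bp. No distal share is given for all bins or for all E2 bins.

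By length, the distal share was 61.2% for the runs of 200 bp left out, 63.2% at 400 bp and 70.6% at 2000 bp or more. The share of E6 bins ran from 50.4% at 400 bp to 81.3% at 2000 bp or more. Inside protein-coding genes lay 53.6% of new regions. The same was true of 39.2% of all bins and 60.4% of DMSO E2 bins.

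**Figure D2:**
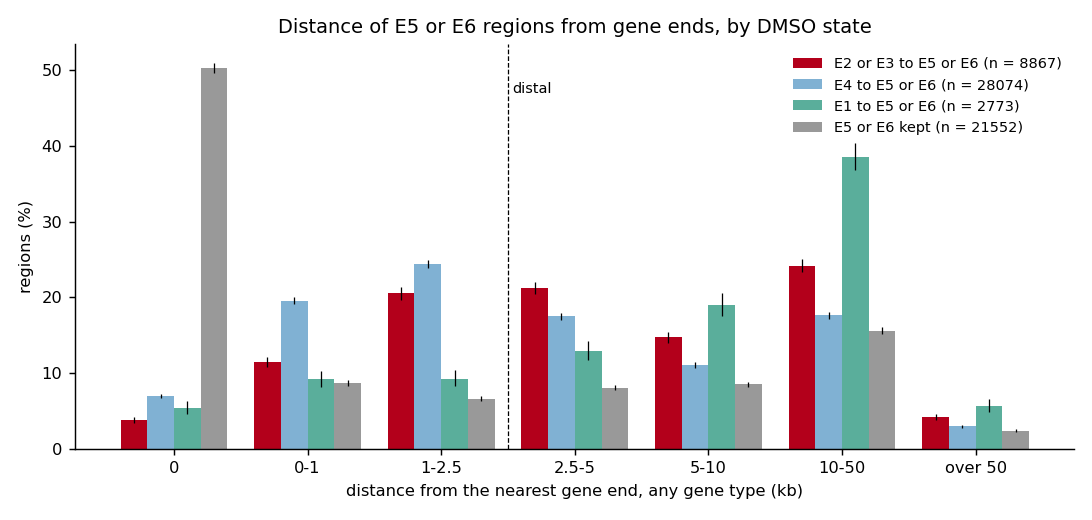
Share of regions (vertical axis, percent, with 95% Wilson intervals) by distance from the nearest gene end (horizontal axis, kb), for E5 or E6 regions grouped by their DMSO state. Kept regions mostly touch a gene end (50.2%), which 3.79% of the new regions do. The rule bars starts that were E5 or E6 in DMSO from the new regions.

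A gene start itself was seldom involved, which the rule partly sets. Starts that were E5 or E6 in DMSO could not lie in a new region. In 13086 of 32619 tabled promoters the start was E5 or E6 in both treatments. A tabled RefSeq start lay inside 88 of the 8634 new regions on chromosomes with tabled starts (1.02%), against 2.40% of regions from E4 and 44.7% of those kept. Around starts that were already E5 or E6 in DMSO, extensions within 5 kb lay downstream in 1136 cases and upstream in 959. The downstream share was 54.2% (52.1 to 56.3). Wholly new regions lay within 5 kb of a start in 606 cases downstream and 590 upstream, a downstream share of 50.7% (47.8 to 53.5).

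Among protein-coding genes, 79 of 17274 with a tabled start had a new region over a promoter. For 60 of them no tabled start was E5 or E6 in DMSO, and 50 of these had one in GSK-LSD1. Genes of myeloid and inflammatory function stood beside genes of other tissues in this group. Cxcr2, Itgam, Nlrp3, Igsf6 and Ms4a6b were among them, as were Ccl3, a chemokine, Tlr1, a receptor for bacterial lipoproteins, and Mefv, which encodes pyrin. So were Wnt6 and Igf2, a signalling ligand and a growth factor of development, and Pdyn, the precursor of opioid peptides. Apoc2, Car11, Cldn3, Crtac1, Dmrta1, Olfr94, Slc10a4, Tmeff2, Ttbk1 and Ttc9b also belonged to the group. The genes named here were picked from the 50, and the share of myeloid genes among them was not counted.

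The promoters under new regions were mostly poor in CpG. The 138 overlapped promoters had a mean of 2.37 CpG per 100 bases (median 1.33), against 7.53 for 13086 promoters whose start was E5 or E6 in both treatments. The 15688 promoters with a start in E2 or E3 in both had 1.65, close to the new ones. The promoters of E5 and E6 starts differed. The 61 whose start was E5 in GSK-LSD1, from any DMSO state, had 3.31 ± 3.49 (SD across promoters), and 13 of them reached 5 per 100 bases. The 54 whose start was E6 in GSK-LSD1, again from any DMSO state, had 1.22 ± 0.835, and 0 of them reached 5. Among starts that were E2 in DMSO, the 31 that became E5 had 2.78 ± 2.67 and the 43 that became E6 had 1.20 ± 0.861. Across all tabled promoters, starts in E5 and in E6 in GSK-LSD1 had similar means, 7.05 and 7.40. The 18 overlapped promoters whose start was E3 in DMSO had 3.89 ± 4.32, and Lrig1, at 11.7, was one of them.

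**Figure D3:**
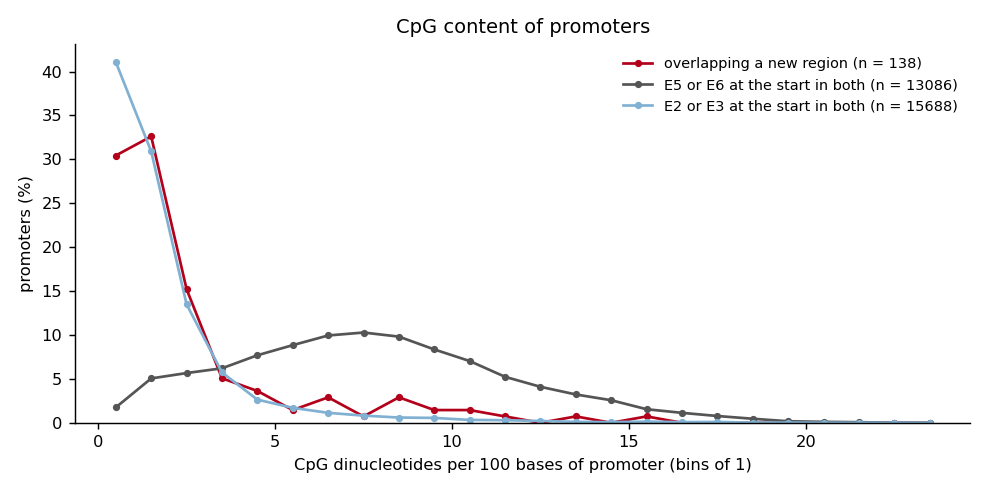
Share of promoters (vertical axis, percent) by CpG content (horizontal axis, CpG per 100 bases) for promoters overlapping a new region, those with E5 or E6 at the start in both treatments and those with E2 or E3 in both. The promoters under new regions follow the E2 or E3 curve, with a mean of 2.37, rather than that of the kept starts, with a mean of 7.53.

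The same promoters were searched on both strands for 8 short motifs of myeloid factors. PU.1 letters (GAGGAAGT) occurred in 5.80% of the 138 (2.97 to 11.02) and in 3.22% of all 32619 promoters. C/EBP letters (TTGCNNAA) occurred in 15.2% (10.2 to 22.1) and 10.9%. RUNX letters (TGTGGT) occurred in 19.6% and 16.6%, the core of the GFI1 motif (AAATC) in 42.0% and 35.8%, and the GAAANNGAA letters of interferon response elements in 12.3% and 8.53%. ETS letters (GGAAGT, which the PU.1 letters contain) occurred in 23.9% of both. AP-1 letters (TGANTCA) occurred in 6.52% and 7.85%, and the CAGCTG E-box in 16.7% and 16.4%. For each of the 8 motifs the share of all promoters lay inside the interval of the 138. The same held for the 15688 promoters with a start in E2 or E3 in both treatments. Their shares were 3.28% for PU.1, 13.3% for C/EBP, 19.9% for RUNX, 44.2% for GFI1 and 9.80% for the interferon letters. They were 20.7% for ETS, 10.3% for AP-1 and 17.5% for the E-box.

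Of 1005 tabled miRNA hairpins, 2 lay in a new region. That is no larger a share than the 36530 of 13168874 bins that the new regions held. One was Mir223 (chrX:96242817-96242926, plus strand), a miRNA abundant in granulocytes, in an E5 region of 400 bp that extended an existing one. The other was Mir301 in Ska2 on chromosome 11 (plus strand), in an extension of 1600 bp. The mature miR-223 sequences are shown with the seed, bases 2 to 8, in capitals.
miR-223-3p: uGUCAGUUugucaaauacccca
miR-223-5p: cGUGUAUUugacaagcugaguug

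New regions lay close to each other in places. Within 10 kb of another new region were 44.1% of them (43.1 to 45.2), and the median gap was 14600 bp. Regions entering from E4, which were more numerous, lay within 10 kb of each other in 75.99%. E6-only regions had a neighbour in 53.4% and E5-only regions in 32.9%. Some of this closeness was within one enclosing region, shared by 1280 of the new regions (14.4%). Joined at gaps of up to 10 kb, the regions formed 6527 chains, of which 4954 held a single region and 60 held at least 5.

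The longest chain had 14 regions over 75 kb between Incenp, a protein of the chromosomal passenger complex, and Fth1, the ferritin heavy chain (chr19:9901201-9976200). The densest 100 kb windows held 15 regions each. One lay at Nos1ap and Olfml2b, where E5 and E6 went from 4.6 to 37 kb, and one at the Fc gamma receptor genes Fcgr2b, Fcgr4 and Fcgr3, which bind antibody-coated targets, where they went from 16.8 to 48.8 kb. Another 4 windows held 14: Gfi1, Rpap2 and Evi5 (8.4 to 43.2 kb), Incenp and Fth1 (15.8 to 55 kb), Dnajb6 and Il6 (6.2 to 37.4 kb), and E330021D16Rik and Atf7ip (7.6 to 43 kb).

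New regions were sparser on chromosome X than on any autosome. The autosomes had 3.58 ± 0.813 regions per Mb (SD across 19 autosomes), from 2.54 on chromosome 14 to 5.41 on chromosome 11, and X had 0.982. Yet the share of DMSO E2 bins that became E5 or E6 was higher on X, at 2.10% against 1.28 ± 0.182%. Regions on X were less often distal, 53.0% against 64.4 ± 2.49%, and less often wholly new, 33.9% against 50.96 ± 2.38%. Their bins were E6 in 26.9%, against 60.5 ± 3.98% on the autosomes. X held 2.22 Mb of E2 in DMSO, and the autosome with the least, chromosome 18, held 17.2 Mb. Over all chromosomes, regions from E3 alone were distal in 45.8% and wholly new in 34.2%, with 22.3% of their bins E6. How far the source state accounts for the values on X was not tested.

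The longest distal region, 9200 bp of E6 made wholly of former E2, lay inside Aopep, an aminopeptidase gene (chr13:63003801-63013000). It was 35144 bp from the nearest gene end and 20400 bp from the nearest E5 or E6 of DMSO. The next were extensions of 6600 bp in Cd163l1 and 34750 bp from Rcl1, and one of 6200 bp in Adipor2, a receptor for adiponectin. Regions of 5000 bp in Evi5 and 4200 bp near Cdh3, a cadherin gene, were again made of E2 alone. The other long distal ones lay in Niban2, Rbm47, Nos1ap and Plcl2, 12003 bp from Chsy1 and 36138 bp from Rgs2. All 12 were E6 throughout. So were the 6 longest proximal ones. The longest, 7000 bp, was proximal to an end of a gene of another type, and its nearest protein-coding gene, Zfp438, was 56575 bp away. Others lay inside P2rx4 (5600 bp) and Ssbp2 and Gfi1 (4200 bp each) and 1787 bp from Prkcd (4000 bp). P2rx4 encodes an ATP-gated channel.

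By nearest protein-coding gene, the regions went to 5121 genes. Maml3, a coactivator of Notch signalling, had the most, with 19 regions and 23.4 kb, of which 17 were distal and 9 wholly new. It was followed by Nos1ap, which encodes an adaptor of neuronal nitric oxide synthase (20.8 kb), and Ssh2, a cofilin phosphatase (16.8 kb). Bmp2k (16.2 kb), Rbm47 (15.6 kb), Eea1 (15 kb), Aopep, Ly86 and Tiam1 (14.4 kb each), Emb and Irak2 (14.2 kb each) came next. Evi5 (13.8 kb) and Ptprc, Stt3b and Susd1 (12.4 kb each) completed the 15. Ly86 encodes MD-1, a partner of an innate immune receptor of B cells and macrophages, Irak2 a kinase of Toll-like receptor signalling and Ptprc the leukocyte antigen CD45. Their kinds differed: at Nos1ap 12 of 14 regions and at Stt3b 11 of 13 were wholly new, while at Irak2 1 of 10 was.

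A new region lay in or within 20 kb of 7389 of 21631 protein-coding genes (34.2%). Where that window already held E5 or E6 in DMSO the share was 46.9% of 15317 genes, and where it did not it was 3.31% of 6314. Counts in the gene lists below are to be read against these shares. The lists were chosen with earlier results of these data known. In 16 of the 20 lists the share was above 34.2%. The housekeeping list, with 12 of 16 genes, stood among the higher ones beside myeloid lists. Lists of stroma and endothelium (2 of 12) and of unrelated tissues (3 of 16) were lowest. With 5 kb in place of 20 kb, where the share of all genes was 24.0%, the counts were 7 of 16 housekeeping genes, 6 of 18 chemokine receptors, 5 of 20 myeloid transcription factors, 3 of 20 MAPK and AP-1 genes, 2 of 18 erythroid genes, 1 of 12 stromal genes and 0 of 16 genes of unrelated tissues.

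**Figure D4:**
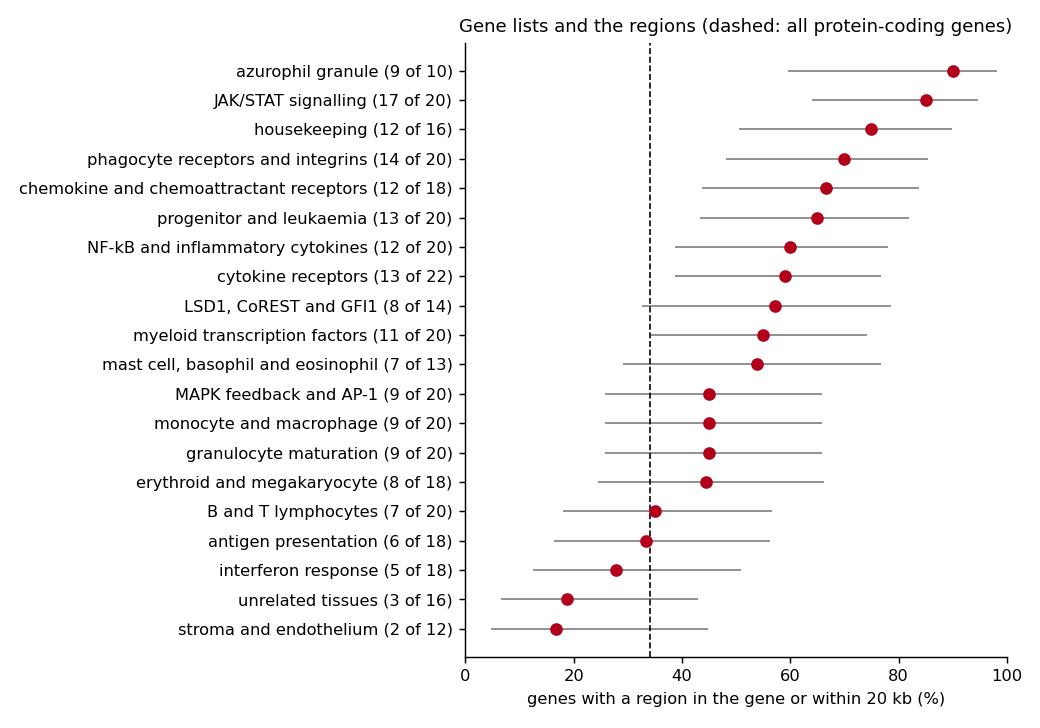
Share of each list's genes with a new region in the gene or within 20 kb (horizontal axis, percent, with 95% Wilson intervals), with counts beside the names. The dashed line marks the 34.2% of all protein-coding genes; azurophil granule genes (9 of 10) are highest and stroma and endothelium (2 of 12) lowest.

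The partners of LSD1 came first by role. In 8 of 14 genes of LSD1, CoREST and GFI1 a new region was present. Gfi1 itself had 5 regions and 9.2 kb, and E5 and E6 in its window went from 5.2 kb to 22 kb. The longest of the 5, 4200 bp of former E2 that became E6, lay inside the gene (chr5:107716801-107721000). It took the bins from 5000 to 9000 bp downstream of the gene's start. A pair past the gene's end, from the bins 17000 and 18000 bp downstream of the start, measured 800 and 2400 bp. Another, of 1000 bp, lay 8.80 kb upstream. The start itself was E5 in DMSO, and the fifth region was an 800 bp extension 3.40 kb upstream of it. Gfi1b, its relative in red cell and platelet precursors, had 2 extensions of 1000 and 800 bp in one enclosing region of 11800 bp. Kdm1a had 1 region of 1000 bp inside the gene, made of former E2. Hmg20b, an HMG-box protein of the CoREST complex, had 3.4 kb.

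The chromosomal copies of the genes that the retroviruses carried differed. Csf3r, which encodes the G-CSF receptor, had 1 new region of 1600 bp, E2 in DMSO and E5 in GSK-LSD1 (chr4:126025201-126026800). It lay inside the gene, 0.542 kb downstream of the nearest tabled start. The E5 or E6 region around it was wholly new. Cebpa had 0 new regions, although E5 and E6 in its window went from 3.4 to 6 kb.

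Genes of granulocyte maturation were unevenly involved, with a new region at 9 of 20. Cebpe, a transcription factor of late granulocyte development, had 2 extensions of 3000 and 2600 bp of E6, inside one region of 13200 bp. Itgam had 3 regions: 1000 bp over its start, 4 bins of E5 and 1 of E6, and extensions of 1000 and 1600 bp 10.6 and 14.0 kb upstream. Cxcr2 went from no E5 or E6 within 20 kb to 7.4 kb, with 3 wholly new regions. One of 2000 bp covered the start, and those of 1000 and 400 bp lay 0.994 and 2.19 kb upstream. Mmp8, a neutrophil collagenase, had a 3000 bp extension inside the gene. Ltf and S100a9 had 1 region of 0.4 kb each, while Camp, Ngp, Lcn2, Ly6g and S100a8 had 0.

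**Figure D5:**
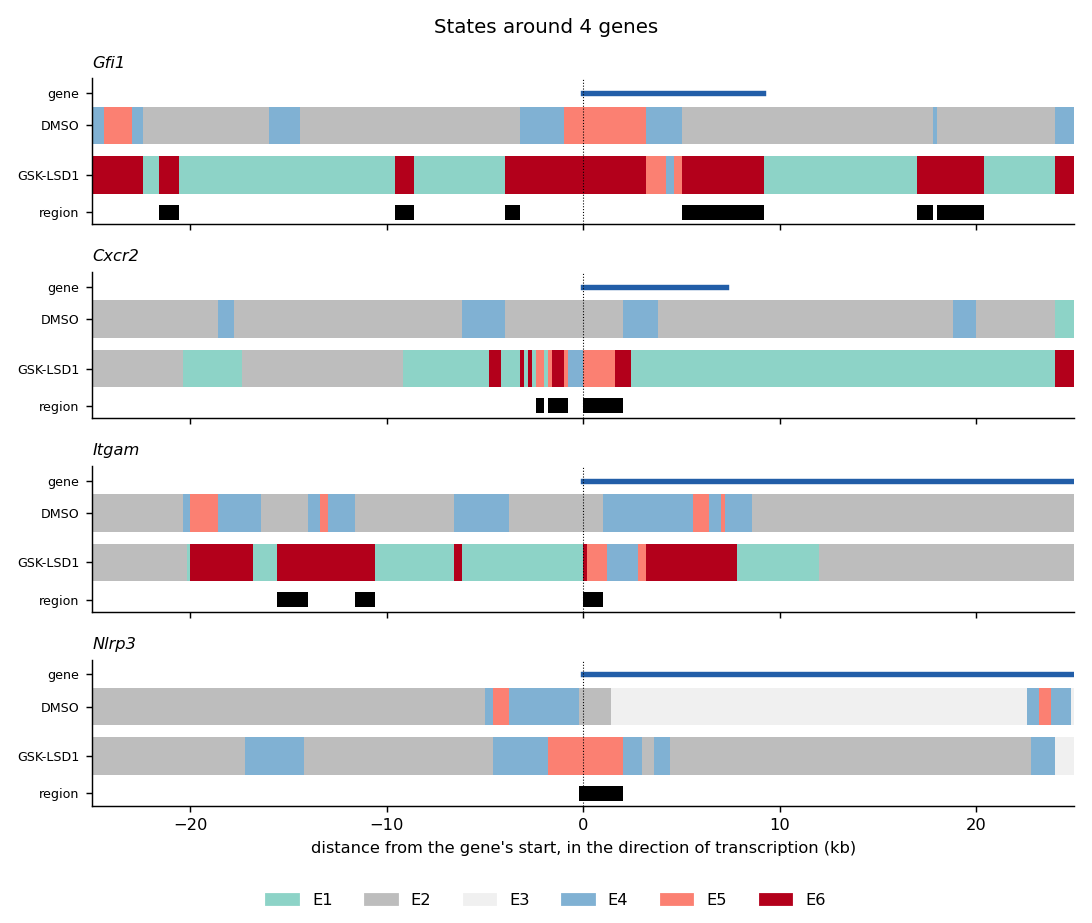
States in DMSO and GSK-LSD1 (coloured bars) and the new regions (black) within 25 kb of the starts of Gfi1, Cxcr2, Itgam and Nlrp3, with the distance from the start in kb along the horizontal axis. The start of Gfi1 was E5 already in DMSO, whereas new regions cover the starts of the other 3 genes.

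Azurophil granule genes, which are made at the promyelocyte stage, had a new region in 9 of 10 windows, though each held 2 at most. With 5 kb around each gene, and by nearest gene, the count was 5 of 10, below the shares of the JAK/STAT list (12 and 14 of 20). Ctsg, cathepsin G, went from 0 to 6 kb of E5 and E6, and its single new region of 1600 bp of E5 lay 8.57 kb downstream of its start. Srgn, the proteoglycan core of granules, had an extension of 1400 bp. Elane, neutrophil elastase, had 2 regions and 1.2 kb, and the one of 0.8 kb was also the region counted for its neighbour Prtn3, proteinase 3. Ms4a3 had 2 regions and 1.2 kb. Among monocyte and macrophage genes 9 of 20 had a region. Cd300a, an inhibitory receptor, had 6 regions and 4.4 kb, and went from 3 to 17 kb. Fcgr1, the high-affinity receptor for IgG, had 3 regions and 3.2 kb. Cd14, a co-receptor for lipopolysaccharide, had 4 regions, all extensions. Adgre1, which encodes F4/80, went from 0.4 to 8.4 kb with 1.4 kb in new regions. Csf1r, Cx3cr1 and Cybb had 0.

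Phagocyte receptors and integrins had a region at 14 of 20. Of the E2 in their windows in DMSO, 5.40% became E5 or E6 (4.69 to 6.22), against 1.29% over the windows of all genes. That share was also above 1.29% in the housekeeping list, at 3.40% (2.71 to 4.25), and in the erythroid list, at 2.92%. It was 0.522% in the list of unrelated tissues and 0.927% in that of stroma and endothelium. The Fc gamma receptor genes share much of the phagocyte list's area because they are neighbours. Fcgr3 had 7 regions and 7.8 kb, Fcgr2b 7 and 5 kb, and Fcgr4 7 and 4.8 kb. Clec4d and its neighbour Clec4e, C-type lectins that sense microbes and dead cells, had 5.2 and 4.2 kb. Chemokine and chemoattractant receptors had a region at 12 of 18, led by Ccr7 (3.6 kb), Cxcr2 (3.4 kb), Ccr1 (2.6 kb) and Ccr3 (1.6 kb).

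In cytokine signalling, new regions lay at receptors, STAT genes and STAT targets. Cytokine receptors had a region at 13 of 22. Il6st, the shared gp130 chain, had 4 regions and 8.33 kb, among them a 4000 bp extension that was E5 in 19 of 20 bins and lay inside the gene. Il4ra and Il6ra had 3.4 kb each, and Tnfrsf1b had 1.8 kb. Kit, Flt3 and Csf1r had 0 within 20 kb, and by nearest gene 1 region of 0.4 kb went to Kit. The JAK/STAT list had a region at 17 of 20, and 3.88% of its E2 became E5 or E6 (3.31 to 4.54). All 20 of its windows held E5 or E6 already in DMSO. Bcl2l1, which encodes the survival protein BCL-XL, had 6 regions and 5.2 kb, Stat3 had 4 and 4 kb, Ptpn6, the phosphatase SHP-1, had 2 and 3.8 kb, and Osm, a STAT-induced cytokine, had 3 and 3 kb. Jak2, Pim2 and Stat6 had 0 within 20 kb, and by nearest gene 2 regions (2.8 kb) went to Jak2.

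NF-kB and inflammatory cytokine genes had a region at 12 of 20, and 4.77% of their E2 became E5 or E6 (4.08 to 5.58). Cxcl1, a ligand of CXCR2, had 4 regions and 7.2 kb, the longest an E6 extension of 3800 bp 8.04 kb upstream, and it went from 3.2 to 18.4 kb. Cxcl2, its neighbour and relative, had 3 regions and 3.4 kb. Nfkb1, which encodes the p50 subunit, had 5 regions and 5.6 kb, and Ccl9 had 3 and 5 kb. At Nlrp3 a region of 2200 bp, 8 bins from E2 and 3 from E3, became E5 over the start. Antigen presentation genes (6 of 18) were near the share of all genes. Interferon response genes (5 of 18, or 27.8%, 12.5 to 50.9) were below it. In each of these 2 lists 16 windows held E5 or E6 in DMSO, and for all such genes the share was 46.9%. Exceptions in these lists were Cd274, which encodes the checkpoint ligand PD-L1, with 8 regions and 7.6 kb, and Usp18, with 5 and 4.8 kb. Usp18 is a protease that limits interferon signalling.

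Transcription factors of myeloid cells had a region at 11 of 20. After Cebpe came Spi1, which encodes PU.1 (3 regions, 1.8 kb), Maf (1.4 kb) and Junb (1.2 kb). Progenitor and leukaemia genes had a region at 13 of 20, but 1.22% of their E2 became E5 or E6 (0.996 to 1.48), no more than in all windows. Etv6, an ETS repressor, had 5 regions and 5.2 kb, and Cdk6 had 3 and 4.4 kb. Cd34 and Mecom had 2.4 and 1.8 kb. Myc, Gata2, Hlf and Sox4 had 0 within 20 kb, although by nearest gene 6 regions (3.8 kb, 4 of them wholly new) went to Sox4 and 1 to Myc. MAPK feedback and AP-1 genes had a region at 9 of 20, with Fosb, Batf, Junb and Fos at 2.2, 2, 1.2 and 1 kb.

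Lists of other lineages also held genes with a new region, to be read against 34.2% of all genes. Among genes with E5 or E6 in the window in DMSO the share was 46.9%. The list of mast cells, basophils and eosinophils stood at 53.8%, the erythroid and megakaryocyte list at 44.4% and the lymphocyte list at 35%. Mast cell, basophil and eosinophil genes had a region at 7 of 13, led by Cpa3, a mast cell carboxypeptidase (2.6 kb), Il4 and Mcpt8 (1.6 kb each) and Hdc (1.4 kb). Erythroid and megakaryocyte genes had a region at 8 of 18, led by Nfe2 (6 kb), Pf4 (2.78 kb), Tfrc (1.6 kb) and Hba-a1 (1.53 kb). Of B and T lymphocyte genes 7 of 20 had one, with Cd3g at 3 kb, Cd3d at 2.23 kb and Tcf7 at 1.6 kb. Gata1, Itga2b, Pax5 and Rag1, which define these lineages, had 0 regions. The stroma and endothelium genes with a region were Col1a1 and Pecam1, at 0.8 and 0.4 kb. Those of unrelated tissues were Gcg, Nphs1 and Ins2, at 0.8, 0.6 and 0.345 kb. Housekeeping genes were led by Ywhaz (2.74 kb), Eef1a1 (2.4 kb) and Rpl13a (1.8 kb).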

How the data were processed

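Histone marks were profiled by ChIP-seq in cells given DMSO or GSK-LSD1, 3 marks each with 1 library per mark, with the CST SimpleChIP kit per the labels' protocols. Reads were aligned with Bowtie to mm10 (GRCm38), per the submitters' processing notes. The authors deposited 1 segmentation per treatment, a list of segments with state labels E1 to E6 and no scores or counts. How the segments were made is not stated in the sources used here. The deposited files held 136061 segments for DMSO and 162731 for GSK-LSD1, and every end lay on the 200 bp grid.

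Segments were expanded to bins and compared with Python 3.11.15, NumPy 2.4.6, pandas 2.3.3 and SciPy 1.17.1, and plotted with Matplotlib 3.10.9. Distances were measured from both ends of 49554 RefSeq genes of GRCm38.p6, and gene windows used the 21631 protein-coding ones with 20 kb on either side. Strand and start came from 32619 tabled promoters. Promoters of chromosome 18 were not used here. All 355 list entries matched by symbol. Named were the 12 longest distal and 6 longest proximal regions, the 5 densest windows, the 15 genes with most region area by nearest gene, the 4 leading genes of each list, and Cebpa, Csf3r, Kdm1a, Gfi1 and Gfi1b. A few of these are not reported here. Promoters of named genes were to be shown, at most 6, which gave Cxcr2 and Itgam. The other promoters shown, the miRNAs, the genes with a new start, genes named for holding no region in their window, Ltf, S100a9 and Prtn3 were chosen after their values were seen. The regions and lists were chosen with earlier results of these data known. With 1 segmentation per treatment nothing was tested. The steps were tested on simulated data with planted regions, of which all 400 were recovered. Alternatives changed length, gap, source, target, flank, distance and window limits, and left out each chromosome in turn.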

Additional observations from a re-analysis of the deposited data

How the results depend on the processing

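With no replicates, the values were recomputed under other rules. No paired analysis was possible because each treatment has 1 segmentation. With runs of 200 bp kept, 89.2% of bins came from E2, 58.5% went to E6, 47.5% of regions were wholly new, 51.4% were clustered and 42.9% of genes had one. At 1000 bp or more there were 2580 regions, 66.0% distal and 27.1% clustered, with 93.4% of bins from E2, 69.1% to E6 and 12.5% of genes. With no E1, E4, E5 or E6 of DMSO in the adjacent bins there were 2556, 72.7% distal and 23.3% clustered, with 90.8% from E2, 61.1% to E6 and 12.97% of genes, and 100% were wholly new by construction. From E2 alone, 66.8% were distal, 53.2% wholly new, 64.3% of bins E6 and 30.3% of genes near. From E3 alone there were 1098 regions, 46.2% distal, 34.6% wholly new and 13.5% clustered, with 22.4% E6 and 5.68% of genes. For E5 alone there were 4107, 51.2% distal, 43.1% wholly new and 27.3% clustered, with 80.04% from E2 and 24.1% of genes. For E6 alone there were 4916, 75.7% distal, 57.7% wholly new and 47.9% clustered, with 96.3% from E2 and 15.9% of genes. Merging across 400 bp left 41.3% clustered. Leaving out 1 chromosome raised the E2 share to at most 90.6%, the E6 share to 60.6% and the gene share to 34.9%, and moved no other value beyond its interval.

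The distal share was 84.8% at a limit of 1000 bp, 43.0% at 5000 bp and 28.3% at 10000 bp. It was 74.2% from protein-coding genes alone and 77.5% from tabled starts alone, the last chosen after seeing the data. Under each of these limits, and for regions of 1000 bp or more, new regions were distal more often than kept ones (28.3% against 17.98% at 10000 bp). Under every limit the rule kept starts that were E5 or E6 in DMSO out of the new regions. Clustered shares were 31.4% within 5 kb and 58.7% within 25 kb. Genes with a region were 24.0% within 5 kb, 46.8% within 50 kb, 32.6% around both gene ends and 23.7% by nearest gene. Of the 20 lists, 13 lay above the share of all genes in all 5 windows tried and 3 lay below it in all 5. Regions of 400 bp are 2 bins, so calls near that size rest on few bins.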
